A study of Arabidopsis thaliana with 12 samples.

Results

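The genes described here are the protein-coding genes of the plastid genome of Arabidopsis thaliana, the small circular genome of the chloroplast. They were chosen by position and not by expression: genes that the gene table places on the plastid genome and that have a probe set listed with a single gene on the array were taken. There were 69 of them among 13356 genes with such a probe set. By function, 43 are photosynthesis genes, 19 belong to gene expression (8 proteins of the small and 7 of the large ribosomal subunit, and 4 RNA polymerase subunits), and 7 have other roles. Another 7 plastid genes were left out because their probe sets were listed with several plastid gene identifiers.

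RNA came from the aerial parts of 10-day-old plants. The plants had been kept at 22 °C under continuous white light for 9 days, and the treatments lasted 24 hours. The 4 groups were white light (labelled WL), white light with abscisic acid (WLABA), white light with supplemental far-red light (FR), and supplemental far-red light with abscisic acid (FRABA), each with 3 arrays that the labels call biological replicates. The labels give abscisic acid as 1 mM, and 0 mM in the groups without it. They print intensities, in mmol per square metre per second, of 80 for white light and 6 for the far-red light. These prefixes could not be checked. No genotype, mutation or transgene is named in the labels. Abscisic acid (ABA) is a hormone of drought and seed maturation, and added far-red light mimics the shade of a canopy. The design asks how each treatment acts in the presence and absence of the other.

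Chloroplasts keep a reduced genome whose genes encode core subunits of the photosynthetic complexes together with part of the machinery that reads them. Transcription is shared between a plastid-encoded RNA polymerase of bacterial type, whose core subunits are the products of the rpo genes, and nuclear-encoded polymerases of phage type. As background, photosynthesis genes rely mainly on the former, the rpoB gene group and accD are classic targets of the latter, and many genes have promoters for both. Most plastid genes lie in operons that are transcribed together and then cut, edited and trimmed by nuclear-encoded proteins, so that transcripts of neighbouring genes can reach different levels. Plastid RNAs mostly lack long poly(A) tails, while the labelled RNA here was made from an oligo-dT primer. What this does to the measured values was not tested.

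Under far-red light without ABA, 6 of the 69 plastid genes rose and none fell against white light. They were rpl20, rps15 and rps2, which encode ribosomal proteins, rpoC1, which encodes a polymerase subunit, rbcL, which encodes the large subunit of Rubisco, the enzyme that fixes carbon dioxide, and accD, which encodes a subunit of acetyl-CoA carboxylase, the entry enzyme of fatty acid synthesis. With ABA under far-red light 6 genes fell, all of gene expression: rpl20, rps15, rps16, rpoB, rpoC1 and rpoC2. With ABA in white light rps16 fell and no other plastid gene was called. Far-red light in the presence of ABA gave no call. Calls are at an adjusted p under 0.05 in limma, adjusted by Benjamini-Hochberg over all 22746 probe sets tested. The median standard error of a difference between groups was 0.096 log2 units for the plastid genes.

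The 6 calls under far-red without ABA were 8.7% of the plastid genes, beside 6.12% of all probe sets called in either direction and 3.87% called higher. The 6 calls with ABA under far-red light were also 8.7%, beside 10.3% of all probe sets called and 5.28% called lower. The share of plastid genes called in either direction was thus near the background in both comparisons. With each array centred on its median it was 3 genes (4.35%) under far-red without ABA, beside 6.85%, and 5 genes (7.25%) with ABA under far-red light, beside 9.75%. In white light 1 of 69 genes (1.45%) was called with ABA, beside 6.43% of all probe sets. With ABA present, far-red light called 0 of 69 plastid genes by limma, beside 0.369% of all probe sets. There 13 plastid genes (18.8%) had an unadjusted limma p under 0.05, beside 11.3% of all probe sets. Far-red light without ABA gave such a p for 24 plastid genes (34.8%), beside 22.1%. ABA gave it for 8 (11.6%) under far-red light, beside 23.5%, and for 6 (8.7%) in white light, beside 19.1%. The interaction of both treatments called no plastid gene, and 0% of all probe sets. An unadjusted p under 0.05 was found for 8 plastid genes (11.6%), beside 6.44% of all probe sets. No difference between a response with and without the other treatment was therefore established for any plastid gene.

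By role, under far-red without ABA 4 of the 19 gene expression genes rose (21.1%), against 1 of 43 photosynthesis genes (2.33%) and 1 of 7 others. Of all probe sets 3.87% were called higher in this comparison. An unadjusted limma p under 0.05 was found there for 9 gene expression genes (47.4%) and 12 photosynthesis genes (27.9%), beside 22.1% of all probe sets. With ABA under far-red light 6 of 19 gene expression genes fell (31.6%), against 0 of 43 photosynthesis genes and 0 of 7 others. Of all probe sets 5.28% were called lower there. In the same comparison 7 gene expression genes (36.8%) and 0 photosynthesis genes had an unadjusted limma p under 0.05, beside 23.5% of all probe sets. These counts are a description, and the difference between the roles was not tested. They also moved with the method. Under far-red without ABA a trended robust variance called atpA, atpF, atpH, ndhK, rbcL, ndhG and ndhH of photosynthesis. Of gene expression it called rps2, rpoC2, rpoC1, rps14, rpl20, rpl14 and rps15. With arrays centred on their medians, or with array weights, only rpoC1, rpl20 and rps15 were called. The comparisons share the 3 far-red arrays, so their values are given side by side and are not independent of each other.

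**Figure D1:**
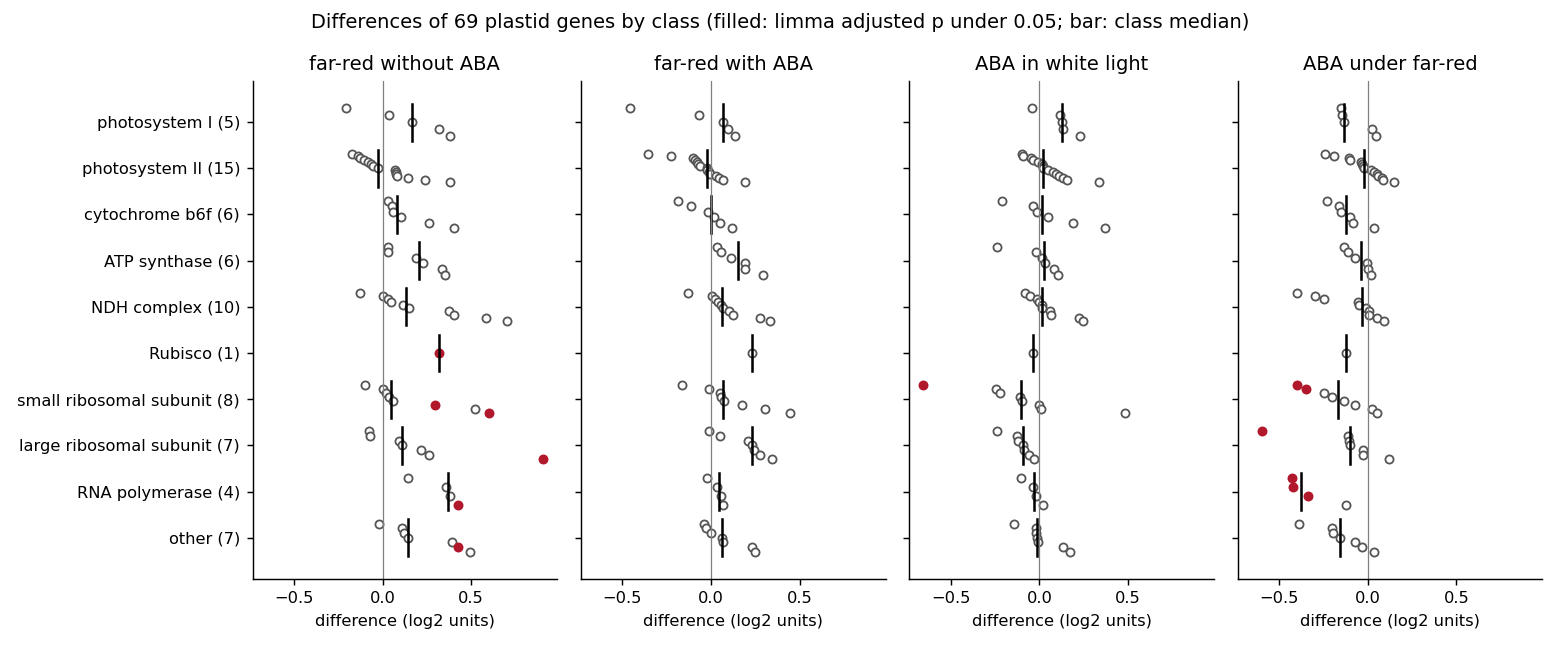
Difference of each of the 69 plastid genes in log2 units (x axis) in 4 comparisons, by functional class (y axis, number of genes in brackets). Points are genes, filled points have a limma adjusted p under 0.05, and the black bar is the class median, which for RNA polymerase lies at 0.37 under far-red without ABA and at -0.379 with ABA under far-red light.

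All 4 RNA polymerase genes had their highest values in far-red light without ABA. For rpoC1, which encodes the beta-prime subunit, the log2 values were 9.68, 9.87 and 9.87 in white light, 9.84, 9.96 and 9.69 in white light with ABA, 10.17, 10.20 and 10.33 in far-red, and 9.81, 9.86 and 10.02 in far-red with ABA. The 3 far-red arrays lay above the other 9. rpoC1 rose by 0.43 under far-red without ABA (SE 0.096, limma adjusted p = 0.0198, 1.345-fold) and fell by 0.34 with ABA under far-red light (SE 0.096, limma adjusted p = 0.0366).

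rpoC2, which encodes the beta-double-prime subunit, read 8.07, 8.62 and 8.49 in white light, 8.23, 8.41 and 8.23 in white light with ABA, 8.67, 8.84 and 8.74 in far-red, and 8.39, 8.36 and 8.22 in far-red with ABA. Its far-red arrays were also the highest of the 12, with white light replicate 2 just below them and white light replicate 1 the lowest. rpoC2 fell by 0.43 with ABA under far-red light (SE 0.12, limma adjusted p = 0.0322), and its far-red difference without ABA was 0.36 (limma adjusted p = 0.0889).

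rpoB encodes the beta subunit and had the dimmest probe set of all 69 genes, called present on 9 of 12 arrays. It read 3.60, 3.48 and 3.48 in white light, 3.57, 3.36 and 3.57 in white light with ABA, 4.07, 3.65 and 3.97 in far-red, and 3.29, 3.60 and 3.54 in far-red with ABA. The far-red group again did not overlap any other. rpoB fell by 0.42 with ABA under far-red light (SE 0.114, limma adjusted p = 0.0281), and its far-red difference without ABA was 0.38 (limma adjusted p = 0.0624).

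rpoA, the gene of the alpha subunit, lies apart from the others at the end of a ribosomal protein operon. Its values were 11.71, 11.87 and 11.71 in white light, 11.78, 11.76 and 11.63 in white light with ABA, 11.94, 11.90 and 11.87 in far-red, and 11.72, 11.76 and 11.86 in far-red with ABA. The far-red arrays lay above all others here too, the lowest of them by less than the rounding of these values. The differences of 0.14 without ABA (limma adjusted p = 0.329) and -0.13 with ABA under far-red light (limma adjusted p = 0.395) were not called. In white light ABA left the 4 polymerase genes with differences from -0.11 to 0.02, none called. With ABA present, their far-red differences were between -0.02 and 0.07, none called.

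**Figure D2:**
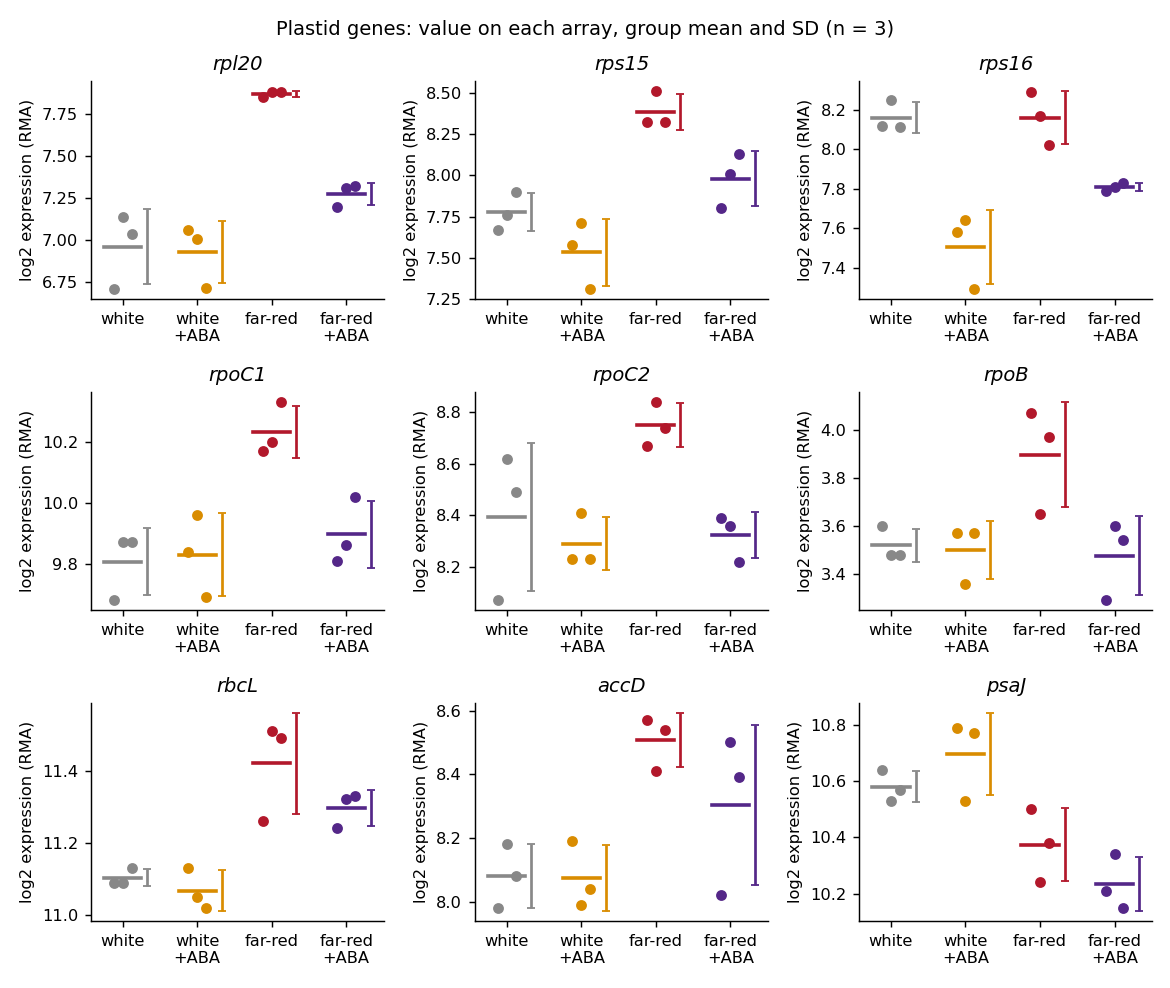
log2 expression (y axis, its own range in each panel) of 9 plastid genes in the 4 groups (x axis). Points are arrays, horizontal lines group means and bars the SD (n = 3). The far-red group lies above all other arrays for rpl20, rps15, rpoC1, rpoC2 and rpoB, and the ABA groups lie lowest for rps16.

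Of the ribosomal protein genes, rpl20 changed most. This gene, for a protein of the large subunit, read 6.71, 7.14 and 7.04 in white light, 7.06, 7.01 and 6.72 in white light with ABA, 7.85, 7.88 and 7.88 in far-red, and 7.20, 7.31 and 7.32 in far-red with ABA. Both far-red groups lay above both groups without far-red light, and the far-red group lay apart at the top. rpl20 rose from 6.96 ± 0.225 to 7.87 ± 0.019 (mean ± SD, n = 3 arrays, limma adjusted p = 0.000509, 1.875-fold) under far-red without ABA. It fell by 0.59 with ABA under far-red light (SE 0.112, limma adjusted p = 0.00345), and the same hormone in white light gave -0.03 (limma adjusted p = 0.933). The interaction of -0.56 (SE 0.159) did not pass, with a limma adjusted p of 0.678, so that the ABA effect was not shown to differ between the light conditions.

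rps15, for a small-subunit protein, read 7.67, 7.76 and 7.90 in white light, 7.58, 7.71 and 7.31 in white light with ABA, 8.32, 8.51 and 8.32 in far-red, and 7.80, 8.01 and 8.13 in far-red with ABA. The far-red arrays were the highest, and 2 of the 3 lowest arrays were of white light with ABA. rps15 rose by 0.60 under far-red without ABA (SE 0.114, limma adjusted p = 0.00875) and fell by 0.40 with ABA under far-red light (limma adjusted p = 0.0356). With ABA present its far-red difference was 0.45 (limma adjusted p = 0.136).

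rps16, for another small-subunit protein, was separated by ABA. It read 8.12, 8.25 and 8.11 in white light, 7.58, 7.64 and 7.29 in white light with ABA, 8.29, 8.17 and 8.02 in far-red, and 7.79, 7.81 and 7.83 in far-red with ABA. Every array with ABA lay below every array without it. rps16 fell by 0.66 with ABA in white light (SE 0.101, limma adjusted p = 0.000861, 1.575-fold) and by 0.35 under far-red light (SE 0.101, limma adjusted p = 0.0377), and its far-red difference without ABA was 0.00 (adjusted p = 0.997, limma).

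rps2, for a small-subunit protein, read 9.50, 9.54 and 9.54 in white light, 9.47, 9.51 and 9.59 in white light with ABA, 9.83, 9.88 and 9.75 in far-red, and 9.49, 9.68 and 9.55 in far-red with ABA. It rose by 0.29 under far-red without ABA (SE 0.079, limma adjusted p = 0.0408). None of the other ribosomal protein genes was called in a pairwise comparison. The one with the widest differences was rps14, picked after its values were seen, whose dim probe set read 4.15, 4.41 and 4.37 in white light, 4.71, 4.85 and 4.81 in white light with ABA, 5.00, 4.59 and 4.90 in far-red, and 4.30, 4.49 and 5.09 in far-red with ABA. Its difference was 0.52 under far-red without ABA (limma adjusted p = 0.0682) and 0.48 for ABA in white light (limma adjusted p = 0.0953), opposite in sign to rps16. Over the 8 small-subunit genes the far-red differences without ABA ran from -0.10 to 0.60 with a median of 0.046, and over the 7 large-subunit genes from -0.08 to 0.91 with a median of 0.112. With ABA in white light all 7 large-subunit genes were below 0 (-0.24 to -0.03), with none called.

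Among the photosynthesis genes, rbcL was the one called in a pairwise comparison. It read 11.09, 11.09 and 11.13 in white light, 11.13, 11.05 and 11.02 in white light with ABA, 11.26, 11.51 and 11.49 in far-red, and 11.24, 11.32 and 11.33 in far-red with ABA. The 6 far-red arrays lay above the 6 arrays without far-red light. rbcL rose by 0.32 under far-red without ABA (SE 0.084, limma adjusted p = 0.0378, 1.246-fold), and with ABA the difference was 0.23 (limma adjusted p = 0.297).

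The photosystem II genes, 15 in number, encode the complex that splits water. Under far-red without ABA their differences ran from -0.17 to 0.38 with a median of -0.024, with 7 above and 8 below 0 and none called. psbD, for the reaction centre protein D2, read 9.31, 9.19 and 9.49 in white light, 9.55, 9.27 and 9.23 in white light with ABA, 9.52, 9.52 and 9.65 in far-red, and 9.27, 9.70 and 9.64 in far-red with ABA. It had the averaged far-red difference farthest from 0 of its class, 0.21 (SE 0.086, limma adjusted p = 0.129). psbA, for the partner protein D1, was picked after its values were seen. It read 10.09, 9.91 and 10.22 in white light, 10.27, 10.32 and 10.64 in white light with ABA, 10.14, 10.02 and 10.31 in far-red, and 9.96, 10.08 and 10.12 in far-red with ABA. White light with ABA held 2 of the 3 highest arrays. The ABA difference was 0.33 in white light (limma adjusted p = 0.101) and -0.10 under far-red light (limma adjusted p = 0.65), and the far-red difference with ABA was -0.36 (limma adjusted p = 0.236).

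Photosystem I has 5 genes here, and psaJ, for a small subunit, was the only plastid gene called lower for far-red light in any of these contrasts. It read 10.64, 10.53 and 10.57 in white light, 10.79, 10.53 and 10.77 in white light with ABA, 10.50, 10.24 and 10.38 in far-red, and 10.21, 10.34 and 10.15 in far-red with ABA. All 6 far-red arrays were below all 6 arrays without far-red light. The difference was -0.21 without ABA (limma adjusted p = 0.223) and -0.46 with ABA (SE 0.096, limma adjusted p = 0.0587). Averaged over both ABA levels, psaJ fell by 0.33 (SE 0.068, limma adjusted p = 0.00853).

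The 6 ATP synthase genes all had far-red differences above 0, from 0.03 to 0.35 without ABA and from 0.03 to 0.29 with it, with none called in either. atpF, for a subunit of the membrane part, read 8.75, 8.65 and 8.74 in white light, 8.95, 8.67 and 8.77 in white light with ABA, 9.07, 8.96 and 9.16 in far-red, and 8.80, 8.99 and 9.18 in far-red with ABA. Its far-red difference was 0.35 without ABA (limma adjusted p = 0.0582). The 6 genes of the cytochrome b6f complex, which passes electrons between the photosystems, had far-red differences without ABA from 0.03 to 0.40. The farthest from 0 was petG, for a small subunit of the complex, at 4.60, 4.64 and 4.66 in white light, 5.25, 4.82 and 4.40 in white light with ABA, 5.16, 5.02 and 4.93 in far-red, and 5.02, 4.72 and 4.89 in far-red with ABA. This difference did not pass the test (limma adjusted p = 0.138).

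The 10 genes of the NDH complex, which drives cyclic electron flow around photosystem I, varied most among the photosynthesis classes, from -0.13 to 0.70 under far-red without ABA, with 9 above 0 and none called. ndhG, for a membrane subunit, read 5.73, 6.01 and 6.18 in white light, 6.40, 6.01 and 5.69 in white light with ABA, 6.54, 6.38 and 6.75 in far-red, and 6.05, 6.60 and 6.27 in far-red with ABA. Its far-red difference was 0.58 without ABA (SE 0.175, limma adjusted p = 0.0615). ndhE, picked after its values were seen, had a difference of 0.70 but a wide error (SE 0.222, limma adjusted p = 0.0737), with 6.88, 7.28 and 7.42 in white light, 7.86, 7.61 and 6.83 in white light with ABA, 7.99, 7.62 and 8.08 in far-red, and 7.21, 7.50 and 7.78 in far-red with ABA.

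Among the 7 other genes accD read 7.98, 8.18 and 8.08 in white light, 8.19, 7.99 and 8.04 in white light with ABA, 8.57, 8.41 and 8.54 in far-red, and 8.02, 8.50 and 8.39 in far-red with ABA. It rose by 0.43 under far-red without ABA (SE 0.112, limma adjusted p = 0.0368). ycf3, for an assembly factor of photosystem I, read 9.29, 9.19 and 9.12 in white light, 9.16, 8.77 and 9.24 in white light with ABA, 9.65, 9.69 and 9.73 in far-red, and 8.89, 9.38 and 9.64 in far-red with ABA. Its difference without ABA was 0.49 (limma adjusted p = 0.0704), and the first array of far-red with ABA lay far below the other 2 of that group. The remaining 5, ycf4 (another photosystem I assembly factor), clpP (a protease subunit), matK (an intron maturase), cemA (an envelope membrane protein) and ccsA (a factor of c-type cytochrome assembly), were not called in any comparison.

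Averaged over both levels of the other factor, where the error is smaller (median SE 0.068), far-red light called 13 of the 69 genes (18.8%), 12 higher and psaJ lower, beside 9.28% of all probe sets. With each array centred on its median this was 6 genes (8.7%), beside 10.2%, so the share above the background was not kept under that scaling. The 12 were rbcL, ndhH, ndhG, atpF and atpH of photosynthesis, rpl20, rps15, rpl14, rpl36 and rpoC1 of gene expression, and accD and ycf3. The rises ran from 0.22 for rpl36 to 0.62 for rpl20. By role, with psaJ counted, 6 of 43 photosynthesis genes (14%, 5 higher and 1 lower) and 5 of 19 gene expression genes (26.3%, all higher) were called. Averaged over light, ABA called 4 genes (5.8%), all lower and all of gene expression: rps16, rps15, rpl20 and rpoC2, beside 17.2% of all probe sets.

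As a whole the plastid genes leaned upwards in far-red light without ABA. Of the 69, 55 had a difference above 0, and the median was 0.112 log2 units, beside 0.003 over all probe sets. With ABA the median was 0.053, beside -0.003. ABA gave a median of -0.084 under far-red light, beside -0.015, and of -0.006 in white light, beside -0.002. Changes in the share of chloroplast-bearing cells and in plastid RNA per cell cannot be told apart in RNA of whole aerial parts. The far-red arrays also had a higher median over all probe sets by 0.093 (two-sided exact permutation p = 0.1, the smallest that 3 against 3 arrays allow). With each array centred on its own median, the far-red median of the plastid genes was 0.019 and that of all probe sets -0.091, which leaves the plastid median near 0 and still above that of all probe sets.

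Groups were also compared by whether they overlapped. Under far-red without ABA all 3 arrays lay above all 3 of white light for 27 plastid genes (39.1%), beside 14.8% of all probe sets. These were 13 photosynthesis genes (30.2% of that role) and 11 gene expression genes (57.9%). With arrays centred on their medians the count was 15 (21.7%), beside 7.17%. So centred, the far-red arrays lay below those of white light for 10 plastid genes (14.5%), beside 22.6%. Of the photosynthesis genes 7 then lay above and 9 below, where 3 lay below in the deposited values. Of the gene expression genes 6 then lay above and 1 below. In the deposited values with ABA, far-red arrays lay above for 10 genes (14.5%), beside 8.97%, and 7 of the 10 were gene expression genes. ABA arrays lay below for 10 genes (14.5%) under far-red light, beside 15.4%, and 8 of these were gene expression genes. In white light they lay below for 6 genes (8.7%), beside 11.8%.

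The contrast of the 2 roles was also read array by array, as the mean over genes of each gene's deviation from its own mean over 12 arrays. Gene expression genes stood at -0.104, 0.009 and -0.029 in white light, -0.107, -0.082 and -0.208 in white light with ABA, 0.216, 0.168 and 0.152 in far-red, and -0.078, 0.023 and 0.04 in far-red with ABA. The far-red arrays were above all others, and white light with ABA held 2 of the 3 lowest of the 12. Photosynthesis genes stood at -0.084, -0.113 and 0.011 in white light, 0.079, -0.056 and -0.067 in white light with ABA, 0.078, -0.011 and 0.142 in far-red, and -0.103, 0.069 and 0.055 in far-red with ABA. Here all 4 groups overlapped. The photosynthesis median minus the gene expression median was 0.113 for ABA in white light, 0.088 for ABA under far-red light, -0.065 for far-red without ABA and -0.038 for far-red with ABA.

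**Figure D3:**
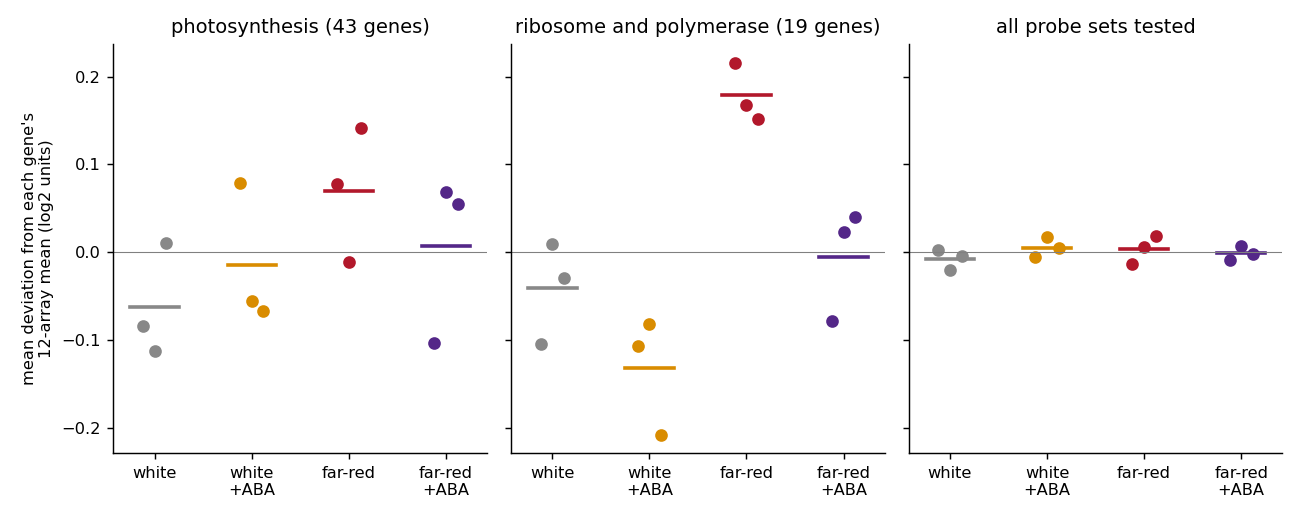
Mean deviation from each gene's own 12-array mean, in log2 units (y axis), for photosynthesis genes, for ribosomal protein and RNA polymerase genes, and for all probe sets, in the 4 groups (x axis). Points are arrays and lines group means (n = 3). The 3 far-red arrays lie at 0.152 to 0.216 for ribosomal protein and polymerase genes, above the other 9.

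The size of a difference went with the signal of the probe set, and this bears on the contrast of roles. Signals of different probe sets do not rank transcript amounts between genes, and are used here as a property of the measurement. Across the 69 genes, Spearman's rho between the mean signal and the size of the difference was -0.59 for far-red without ABA and -0.59 for ABA under far-red light. Over all probe sets it was 0.14 and 0.21. Genes share arrays and operons and are not independent, so no p is given. The 37 genes with a mean of at least 10 log2 units had a median far-red difference of 0.037, with 1 called, and the 32 dimmer ones 0.354, with 5 called. The brightest, atpB and atpE for 2 subunits of ATP synthase, both averaged 13.19 log2 units, near the highest values on the arrays, which were 13.585 to 13.701.

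Within the dimmer genes the medians for far-red without ABA were 0.404 over 8 gene expression genes and 0.263 over 21 photosynthesis genes. Within the brighter ones they were 0.056 over 11 and 0.033 over 22. For ABA under far-red light the dimmer genes gave -0.376 and -0.114, and the brighter ones -0.075 and 0.006. The part that signal range plays in the result was not tested.

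**Figure D4:**
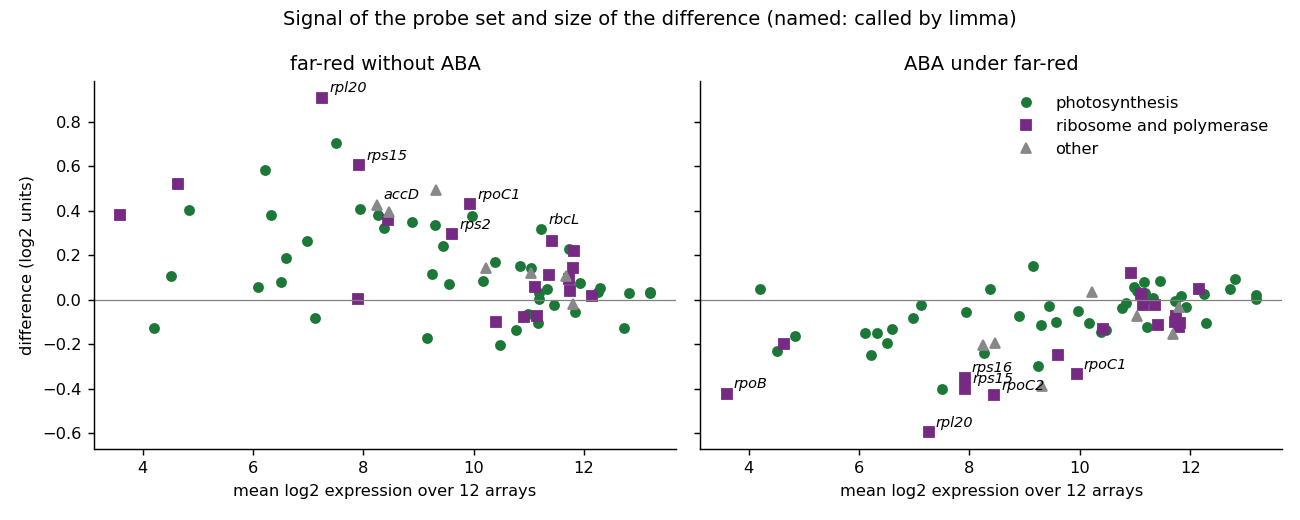
Difference in log2 units (y axis) against the mean log2 expression over 12 arrays (x axis) for the 69 plastid genes, under far-red without ABA (left) and for ABA under far-red light (right). Colours and shapes mark the roles, and genes with a limma adjusted p under 0.05 are named. Differences lie closer to 0 towards the right of both panels. The called gene of highest signal is rbcL in the left panel and rpoC1 in the right.

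Neighbouring genes were then set beside each other, in gene groups taken from general knowledge of plastid operons. The rpoB, rpoC1 and rpoC2 genes, which are transcribed together, had nearly equal far-red differences without ABA, 0.38, 0.43 and 0.36. Their differences with ABA under far-red light were -0.42, -0.34 and -0.43. In the adjoining atpA group, rps2, atpI, atpH, atpF and atpA gave 0.29, 0.19, 0.33, 0.35 and 0.23 under far-red without ABA. The psbE group, for small photosystem II subunits, gave -0.07, -0.06, -0.17 and -0.14 for psbE, psbF, psbL and psbJ. In these groups neighbours had similar values.

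Other neighbours differed. In the ndhH group the far-red differences without ABA were 0.41 for ndhH, 0.05 for ndhA, 0.03 for ndhI, 0.58 for ndhG, 0.70 for ndhE, 0.38 for psaC, 0.11 for ndhD and 0.60 for rps15. The smallest of these belong to ndhA and ndhI, whose probe sets average 11.32 and 12.81 log2 units, and ndhE and ndhG average 7.50 and 6.22. rpl20 stood at 0.91 and clpP, with which it shares a gene group, at 0.11. psaA had 0.32, psaB 0.03 and rps14 0.52, and here too the probe set of psaB, at 12.25, was the brightest of the 3. The psbB group was ordered by signal in this way only in part. Its dimmest sets, petD at 4.52 and psbT at 6.50, had differences of 0.10 and 0.08, and psbB at 8.27 had 0.38. The brightest set of this group, petB at 12.28, had the smallest difference, 0.05, and psbH at 9.56 had 0.07. The atpA group was not ordered so: its dimmest set, atpI at 6.60, had 0.19 and its brightest, atpA at 11.73, had 0.23. The part of signal in these differences between neighbours was not tested.

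**Figure D5:**
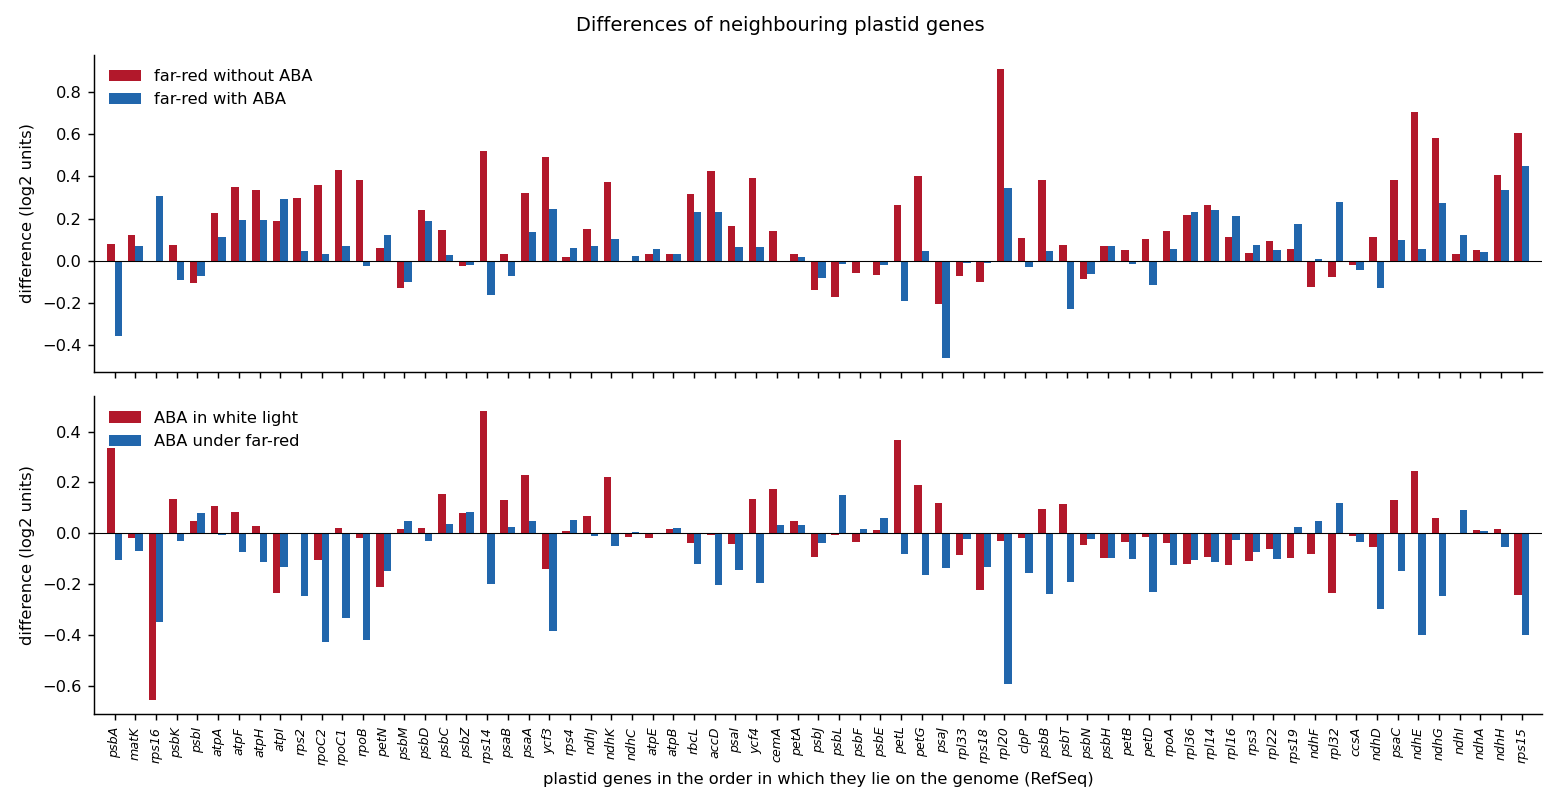
Differences in log2 units (y axis) of the 69 plastid genes in the order in which they lie on the genome (x axis), for far-red light without and with ABA (upper panel) and for ABA in white light and under far-red light (lower panel). Bars start at 0. The bars of rpoC2, rpoC1 and rpoB are similar in height, and those of rpl20, ndhE and rps15 stand out from some of their neighbours.

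Nuclear genes for plastid proteins were looked up in lists from general knowledge, of which the array names only a part. Of 32 nuclear genes for plastid ribosomal proteins, 8 were measured. Their differences under far-red without ABA were below 0 for 7 of the 8, with a median of -0.094 and none called. The plastid-encoded ribosomal protein genes had medians of 0.046 (small subunit) and 0.112 (large subunit). These signs hold for the deposited values, in which the far-red arrays had a median over all probe sets higher by 0.093. With ABA in white light all 8 nuclear genes were below 0, with a median of -0.109 and none called. Of 29 nuclear genes for photosystem and related subunits, 5 were measured, all below 0 under far-red without ABA (median -0.194) and none called. CRP1, a pentatricopeptide-repeat protein that acts on plastid messenger RNAs, was the one measured of 12 listed RNA processing factors, and rose by 0.45 under far-red without ABA (limma adjusted p = 0.0285). RPOTmp, the one phage-type polymerase measured of 3, was called present on no array. The 6 sigma factors and 13 polymerase-associated proteins listed were not analysed here.

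The arrays were alike in quality measures, and some of these moved with the groups. The median of an array ranged from 5.454 to 5.622 log2 units and its present calls made up 60.6% to 67.2% of probe sets, with far-red replicate 3 highest in both. That array also had the lowest difference between 3′ and 5′ probe sets for GAPDH, 0.358, with the others between 0.646 and 0.985. The control set for 25S ribosomal RNA, another RNA without a long poly(A) tail, differed by 0.162 under far-red without ABA and by -0.137 with ABA under far-red light (two-sided exact permutation p = 0.2 each). The mean of the mitochondrial probe sets differed by -0.094 with ABA under far-red light, and the percentage of present calls by 3.2 with ABA in white light and by -2.75 for far-red with ABA (two-sided exact permutation p = 0.1 each, the smallest possible). Over 16 mitochondrial genes with 23 probe sets, the median difference was 0.031 for far-red without ABA and -0.076 for ABA under far-red light. In the former 1 probe set was called, higher (4.35%, beside 6.12% of all probe sets). In the latter 1 was called, lower (4.35%, beside 10.3%). Many of these sets were called present on few or no arrays. The sets present on all 12 arrays, ccb382, nad4, ccb452 and cox1, differed by 0.29, 0.27, 0.49 and 0.22 under far-red without ABA. With ABA under far-red light they differed by -0.28, -0.32, -0.29 and -0.08. The part of these measures in the plastid results was not tested. The root hair genes EXPA7 and EXPA18, used as markers of root tissue, averaged 3.92 and 3.67 log2 units and neither was called. Of the 69 plastid genes 64 were called present on all 12 arrays, and rpoB (9), petN (7), rps14 (11), petD (4) and ndhF (8) on fewer.

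Single arrays decided many of the calls. Far-red without ABA called 6 genes with all arrays, 2 without white light replicate 1 or far-red replicate 3, 3 without white light replicate 3 or far-red replicate 2, and 10 without replicate 3 of far-red with ABA. In that order of arrays, these counts are 2.9%, 2.9%, 4.35%, 4.35% and 14.5% of the plastid genes, beside 1.88%, 2.75%, 2.02%, 1.84% and 6.27% of all probe sets. ABA under far-red light also called 6, and this became 1 without far-red replicate 1 or replicate 1 of far-red with ABA, and 2 without far-red replicate 2, far-red replicate 3 or replicate 2 of far-red with ABA. These are 1.45% or 2.9% of the plastid genes, beside 6.67% to 8.65% of all probe sets. The averaged far-red count of 13 became 6 without white light replicate 1 or replicate 2 of far-red with ABA, 7 without far-red replicate 2, far-red replicate 3 or replicate 2 of white light with ABA, 8 without replicate 3 of white light with ABA, and 5 without replicate 3 of far-red with ABA. These are 7.25% to 11.6% of the plastid genes, beside 5.38% to 7.8% of all probe sets. Without replicate 1 of far-red with ABA the averaged far-red count rose to 17 (24.6%, beside 8.91%). The count of 1 for ABA in white light became 2 (2.9%, beside 6.56%) without replicate 3 of far-red with ABA. Through every alternative tried, rpl20 and rps15 stayed called under far-red without ABA, rpl20 with ABA under far-red light and rps16 with ABA in white light. The calls of rpoC1, rpoC2, rpoB, rps15 and rps16 with ABA under far-red light, and of rpoC1, accD, rbcL and rps2 under far-red without ABA, were each lost in between 3 and 11 of 19 alternatives, with no change of sign.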

How the data were processed

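The authors deposited log2 expression values per probe set from robust multi-array averaging (RMA, affy) and detection calls (MAS5), per the submitters' processing notes. Tool versions and the build were not given in the sources used. The arrays carry 1 colour, and depth does not apply: precision is limited by 3 arrays a group. RMA sets arrays to a common distribution and can compress differences at high signal. The detection calls were used to count present arrays and for 1 filter. The 2 deposited copies of the values were equal within 5e-09.

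Of 22810 probe sets 64 controls were left out and 22746 tested. The platform table lists 13513 with 1 gene, 503 with several and 8730 not at all, which are unnamed here. Plastid genes were matched by gene identifier to RefSeq (TAIR10.1), all 69 with 1 probe set each. No coordinates are printed.

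limma 3.58.1 in R 4.3.3 fitted a mean per group on 12 arrays, with eBayes, two-sided (8 residual degrees of freedom, prior 7.21), adjusted over all probe sets at a threshold of 0.05. It was tested on simulated data. Array measures were compared by exact permutation tests. Replicate numbers were checked for pairing: same-numbered arrays' deviations correlated at -0.051 to 0.273, above 0.1 in 8 of 18 pairs, so they were not treated as pairs. The labels name no pairing, though 11 of 12 arrays correlated best on average with their own number. Alternatives were other scalings, a present filter, a trended variance, array weights, a replicate block, separate fits and each array left out.

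Named with every array's value are up to 4 rises and 4 falls per pairwise comparison among called genes, and per class the gene with the averaged far-red difference farthest from 0; rpoA, rps2, rps14, psbA and ndhE were added after their values were seen. The genes, gene groups and lists were chosen with earlier results of these data known. Figures were drawn with matplotlib 3.10.9.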

Additional observations from a re-analysis of the deposited data

Results flagged for a closer look

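A signal appeared outside the 69 genes, in the probe sets listed with several plastid gene identifiers. These are 8 probe sets of 7 genes, among them the copies in the repeated part of the genome. The set for ndhB, a subunit of the NDH complex, was called higher under far-red without ABA, by 0.672 log2 units (SE 0.178, limma adjusted p = 0.0381). It read 3.47, 3.95 and 3.99 in white light and 4.63, 4.06 and 4.74 in far-red, near the bottom of the range, and was called present on 9 of 12 arrays. The groups did not overlap, and the second far-red array lay close to white light. ndhB was the only call among the 8 sets in a pairwise comparison, beside 6.12% of all probe sets called under far-red without ABA. The sets of ribosomal protein genes differed there by 0.313 and 0.095 for rps12, 0.146 for rpl2, 0.015 for rpl23 and 0.073 for rps7. Groups of 3 arrays were not screened for single distant arrays, and no plastid gene moved in opposite directions with all arrays of both conditions.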

How the results depend on the processing

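No plastid difference named as called changed sign under any alternative. Centring each array on its median moved the median plastid difference to -0.061 for ABA in white light and 0.019 for far-red without ABA, and left 3 genes called under far-red without ABA (4.35%, beside 6.85% of all probe sets) and 6 for averaged far-red (8.7%, beside 10.2%). It also moved the share of higher calls among all probe sets called from 62.5% to 43.9% for ABA in white light, 48.9% to 59.6% for ABA under far-red light, 63.2% to 23.2% for far-red without ABA (49.8% after quantile normalization) and 57.1% to 28.8% for averaged far-red. Testing probe sets present on at least 3 arrays added psaJ for far-red with ABA, a count of 1 (1.45%, beside 0.535%). A trended robust variance called 3 genes for ABA in white light (4.35%, beside 8.35%), 15 for far-red without ABA (21.7%, beside 8.16%) and 2 for far-red with ABA (2.9%, beside 0.655%). Array weights called 3 for far-red without ABA (4.35%, beside 4.31%). Fits of only the groups compared called 2 for ABA in white light (2.9%, beside 5.64%) and 10 for far-red without ABA (14.5%, beside 2.82%). With replicate number as a block 2 genes (psbA added) were called for ABA in white light (2.9%, beside 7.74%) and 8 for far-red without ABA (11.6%, beside 7.75%). The numbers pair the arrays neither in the labels nor by the correlation rule, though 11 of 12 arrays correlated best on average with their own number, a hint from the data only.

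Leaving out single arrays gave 2 to 10 calls for far-red without ABA (2.9% to 14.5%, beside 1.84% to 7.43% of all probe sets). ABA under far-red light had 1 to 6 (1.45% to 8.7%, beside 6.67% to 10.7%). Averaged far-red had 5 to 17 (7.25% to 24.6%, beside 4.98% to 11.3%). Averaged ABA had 3 to 4 (4.35% to 5.8%, beside 14.0% to 16.7%). ABA in white light had 1 to 2 (1.45% to 2.9%, beside 3.99% to 6.64%). The rest had 0 (beside at most 0.356%). Median differences ranged from -0.023 to 0.018 for ABA in white light, -0.119 to -0.017 for ABA under far-red light, 0.077 to 0.144 for far-red without ABA and 0.017 to 0.082 for far-red with ABA. Photosynthesis minus gene expression ranged over 0.061 to 0.160, 0.047 to 0.123, -0.151 to -0.012 and -0.126 to -0.030. Where not given by an alternative's own construction, the cause was not tested. A mean over probe sets gave nothing else, since each gene has 1.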
